A study of Mus musculus with 15 samples.

Results

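Cholesterol handling was described here through 31 genes in 7 roles: the early mevalonate pathway (7 genes), squalene synthesis to lanosterol (3), lanosterol to cholesterol (8), control by sterol regulatory element-binding proteins (SREBPs, 5), lysosomal release and transport (4), efflux and uptake control by genes that respond to liver X receptors (LXRs, 3) and esterification (1). The genes were chosen by name for their known roles, with earlier results of these data known. Each symbol matched 1 Ensembl identifier among the 38924 genes counted. All 31 passed the filter on low counts (a value above 1 CPM, which are counts scaled to a library total of 1000000, for at least 3 libraries), as did 14456 genes in all.

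The libraries came from sorted mononuclear phagocytes (MPs) of untreated wild-type mice (C57BL/6, female, labelled as 6 to 8 weeks old). Spleen gave CD8+ dendritic cells (DCs) of the DC1 lineage, CD4+ DCs of the DC2 lineage and Ly6C+ CD11b+ monocytes, and lung-draining lymph nodes (LNs) gave a DC1 subtype, CD103+ DCs, and a DC2 subtype, CD11b+ DCs. DCs of both organs were CD11c+ MHC class II+, and the LN cells were further gated on high MHC class II to take DCs that had migrated from the lung. Each of the 5 subtypes had 3 libraries, each library pooled the cells of 5 mice, and spleens and LNs came from different cohorts, so that organ and cohort cannot be told apart. The paper describes the spleen as a source of resident DCs only. Organ and migratory state of the DCs therefore cannot be told apart either, and the organ differences below carry both. The replicates are separate pools, and the p values measure the spread between such pools. The main tests treat the libraries as independent, although some libraries with the same replicate number deviated alike.

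Cells make cholesterol from acetyl-CoA through mevalonate, farnesyl diphosphate, squalene and lanosterol. When membrane sterol is low, Scap carries the SREBPs from the endoplasmic reticulum to the Golgi, where they are cut and then switch on the synthesis enzymes, and the Insig proteins hold Scap back when sterol is ample. Sterol in excess activates LXRs, which raise the exporters Abca1 and Abcg1 and the ubiquitin ligase Mylip, while cholesterol taken up in lipoproteins is freed in lysosomes and what is not needed is esterified. In myeloid cells this balance is known to change with activation and with the lipid load.

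The letters of 5 promoters are shown because the enzymes on them differed in how they behaved across the DCs: Hmgcs1, Idi1, Cyp51 and Mvd were higher in LN DCs than in splenic DCs of both lineages, and Ebp passed no test. Each run is the 250 bases before the RefSeq start of the gene (build GRCm38.p6), written 5′ to 3′ on the strand of the gene, with capitals at matches on either strand to 4 motifs: the SREBP element (TCACNCCAC), the E box (CACGTG), the NF-Y box (CCAAT) and the GC box (GGGCGG).
Hmgcs1 (chr13:119690101-119690350, plus strand): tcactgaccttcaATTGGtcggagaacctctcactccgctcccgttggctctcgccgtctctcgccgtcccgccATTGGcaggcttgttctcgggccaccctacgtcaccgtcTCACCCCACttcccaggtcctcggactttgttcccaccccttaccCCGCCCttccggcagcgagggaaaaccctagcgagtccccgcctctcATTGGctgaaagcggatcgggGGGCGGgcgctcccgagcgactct
Idi1 (chr13:8885356-8885605, plus strand): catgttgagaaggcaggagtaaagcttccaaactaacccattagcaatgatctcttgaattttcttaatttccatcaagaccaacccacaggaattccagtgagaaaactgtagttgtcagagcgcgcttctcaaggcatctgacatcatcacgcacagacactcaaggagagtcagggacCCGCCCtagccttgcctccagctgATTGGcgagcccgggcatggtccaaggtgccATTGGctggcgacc
Cyp51 (chr5:4104698-4104947, minus strand): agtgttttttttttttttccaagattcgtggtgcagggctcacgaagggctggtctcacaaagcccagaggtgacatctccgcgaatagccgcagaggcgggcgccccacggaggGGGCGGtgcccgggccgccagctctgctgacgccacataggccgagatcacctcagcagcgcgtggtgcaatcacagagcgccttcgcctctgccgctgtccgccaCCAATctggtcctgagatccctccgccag
Mvd (chr8:122443423-122443672, minus strand): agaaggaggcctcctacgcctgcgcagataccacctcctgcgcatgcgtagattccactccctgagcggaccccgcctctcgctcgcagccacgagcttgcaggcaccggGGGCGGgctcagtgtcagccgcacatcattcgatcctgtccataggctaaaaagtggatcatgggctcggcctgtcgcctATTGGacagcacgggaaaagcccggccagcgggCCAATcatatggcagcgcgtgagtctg
Ebp (chrX:8193513-8193762, minus strand): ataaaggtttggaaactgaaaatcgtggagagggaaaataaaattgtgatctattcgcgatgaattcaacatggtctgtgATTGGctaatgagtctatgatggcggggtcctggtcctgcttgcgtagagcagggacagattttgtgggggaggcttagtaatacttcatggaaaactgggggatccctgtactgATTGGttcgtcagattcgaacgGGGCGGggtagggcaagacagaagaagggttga

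Of the 31 genes, 25 had such a window (5 of them more than 1), and Abcg1, Fdft1, Fdps, Npc1, Sqle and Stard4 had none. The NF-Y box stood in at least 1 window of 22 of the 25 genes (88%), against 40.3% of the 10179 tested genes with a window. The GC box also stood in 22 of 25, against 62% of the tested genes. The E box was found in 6 of 25 (24%, against 9.7%) and the SREBP element in 1 of 25 (4%, against 1.21%), that of Hmgcs1, whose match starts 137 bases before the start. No matches of different motifs overlapped in these windows. Ebp, which did not pass the test in any comparison, held the NF-Y and the GC box too, so these letters did not separate it from the other 4. A match is a description of the letters and no match says only that the letters are not in the window.

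Libraries held 4531243 to 10233914 counts on genes, and the 31 genes took 0.123% to 0.312% of them. Markers followed the labels: Flt3 was at 744 to 1652 CPM across the 12 DC libraries against 50.9 to 117 in monocytes, Xcr1 was highest in the splenic CD8+ DCs, Sirpa was higher in DC2 than in DC1 of each organ, and Ly6c2 was at 707 to 1017 CPM in monocytes. Ccr7, the receptor that guides DCs into LNs, was at 2168 to 4518 CPM in LN DCs and 60.8 to 228 CPM in splenic DCs. The 4 migratory DC markers, Ccr7 among them, summed to 12457 to 14526 (CD103+) and 6283 to 7808 CPM (CD11b+) in LN DCs. In splenic DCs they summed to 156 to 251 (CD8+) and 212 to 361 CPM (CD4+). LN CD103+ DCs held less Xcr1 than splenic CD8+ DCs (34.1 to 96.8 against 516 to 920.3 CPM). In these bulk libraries, fewer expressing cells and less RNA per cell cannot be told apart.

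Transcripts of the synthesis pathway were more abundant in LN DCs than in splenic DCs. The 18 synthesis enzymes were summed in TPM, which divides counts by gene length and scales each library to a sum of 1000000. In the LN the sums were 1097, 959 and 1143 TPM for CD103+ and 827, 754 and 750.3 TPM for CD11b+ DCs, and in spleen 373, 539 and 485 TPM for CD8+ DCs, 307, 359 and 405 TPM for CD4+ DCs and 533, 431 and 566 TPM for monocytes. All 6 LN DC libraries lay above all 9 splenic libraries, and the LN CD103+ DCs above the LN CD11b+ DCs. As log2 ratios of summed TPM, LN exceeded spleen by 1.21 in DC1 and 1.13 in DC2. These sums are descriptive and carry no test, and Fdps, the most abundant of the 18 in TPM averaged over the 15 libraries, weighs most in them. 

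**Figure D1:**
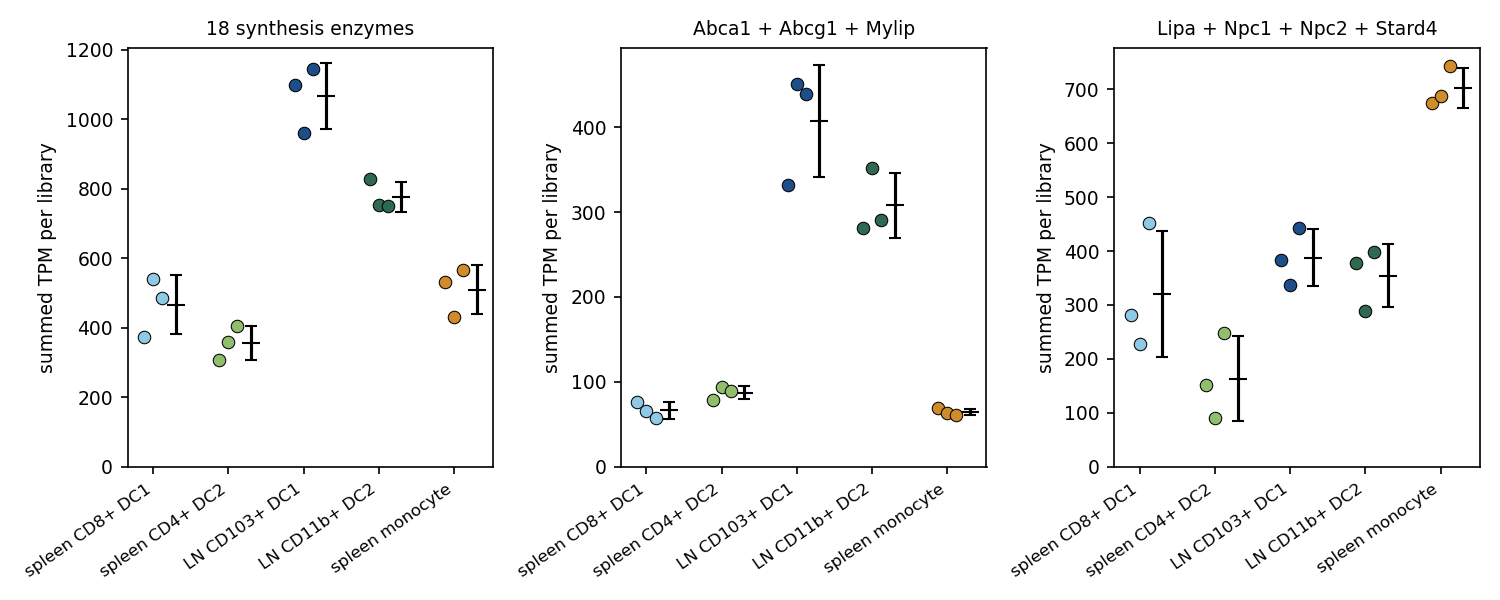
Summed TPM per library (y axis, linear from 0) of the 18 synthesis enzymes (left), of Abca1, Abcg1 and Mylip (middle) and of Lipa, Npc1, Npc2 and Stard4 (right) in the 5 subtypes. Points are libraries and bars mean ± SD (n = 3); the enzymes reach 750.3 to 1143 TPM in LN DCs and 307 to 566 TPM in the splenic subtypes.

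Gene by gene, the average organ difference (the mean of LN minus spleen over DC1 and DC2) was positive and past the threshold (adjusted p under 0.05 in edgeR's quasi-likelihood test, Benjamini-Hochberg over all 14456 genes) for 19 of the 31 genes, where 26.5% of all genes were. It was negative for 5, where 23.4% of all genes were, and 7 were not called. The median log2 fold change was 1.10 over the 31 genes and 0.03 over all genes. Among the 18 enzymes 14 rose and none fell, with a median of 1.40. In 13 of the 31 genes every LN DC library lay above every splenic DC library, which held for 12.4% of all genes, and 11 of the 13 were synthesis enzymes. Within DC1 alone 18 genes rose (23.8% of all genes did) and 3 fell (21.8%). Within DC2 alone 18 rose (19.3% of all genes) and 3 fell (13.8%), and 17 genes were called in the same direction in both lineages, as were 23.4% of all genes. The average is built from the same libraries as the DC1 and DC2 differences. An exact permutation test of 3 libraries against 3 cannot go below p = 0.1, so the p values given are those of the edgeR model.

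**Figure D2:**
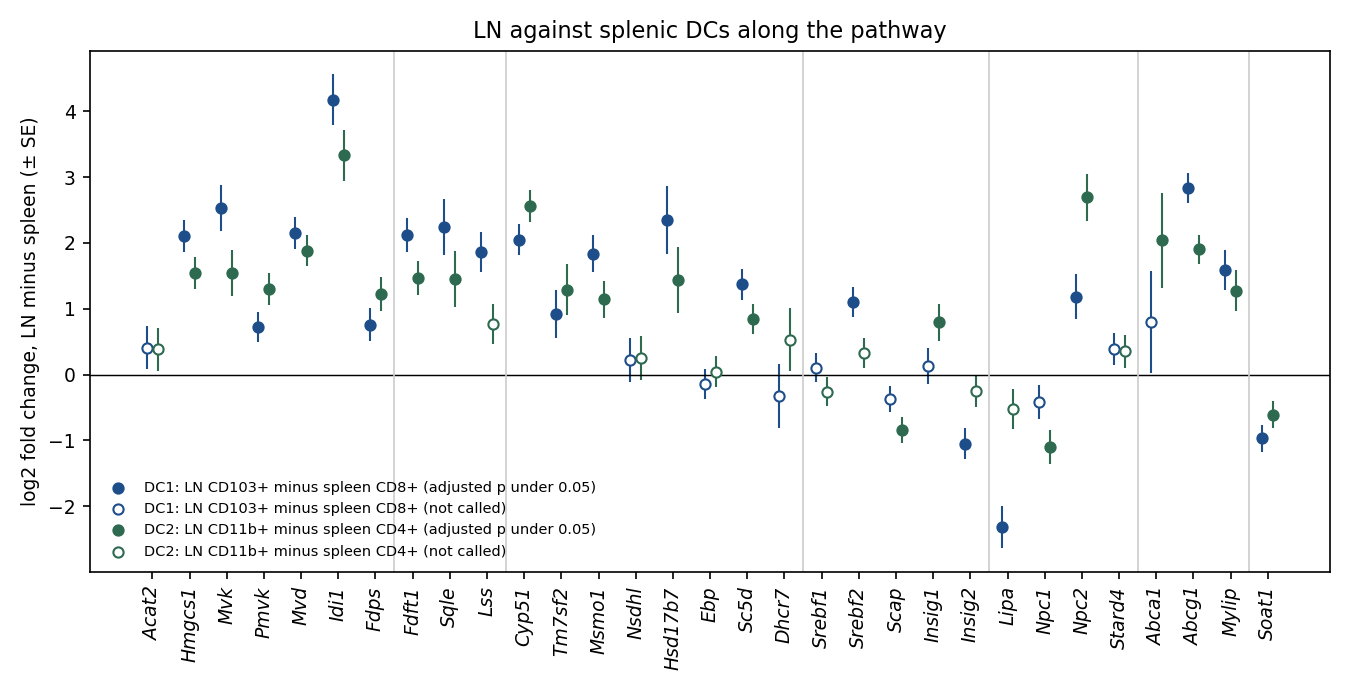
Log2 fold change, LN minus spleen (y axis, ± SE), of the 31 genes in pathway order (x axis, grey lines between roles) for DC1 (blue) and DC2 (green), 3 libraries per subtype. Filled points passed adjusted p under 0.05 and open points did not; the enzymes lie mostly above 0, with Idi1 at 4.18 and 3.33, while Lipa lies at -2.32 in DC1 and Soat1 below 0 in both.

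In the early mevalonate pathway 6 of 7 genes rose in both lineages. Idi1, the isomerase of isopentenyl diphosphate (chromosome 13, 8885501 to 8892451), showed the largest difference of the 31 genes in both. Its CPM was 54.7, 73.6 and 82.8 in the CD103+ and 31.7, 37.8 and 36.2 in the CD11b+ DCs of the LN, 2.39, 4.32 and 4.92 in the CD8+ and 1.93, 2.05 and 6.66 in the CD4+ DCs of the spleen and 5.31, 4.18 and 3.29 in monocytes. The lowest LN library lay far above the highest splenic one, with a log2 fold change of 4.18 ± 0.38, adjusted p = 5.92e-08 in DC1 and 3.33 ± 0.39, adjusted p = 2.33e-06 in DC2. The splenic values rested on 67 and 95 counts over the CD4+ and CD8+ libraries. Hmgcs1, which makes HMG-CoA (chromosome 13, 119690462 to 119708086), had CPM values of 268, 238 and 254 in the CD103+ and 171, 140.5 and 128 in the CD11b+ DCs of the LN, 37.8, 82.97 and 55.5 in the CD8+ and 42.8, 53.2 and 54.9 in the CD4+ DCs of the spleen. The LN and splenic libraries did not overlap, and the log2 fold change was 2.11 ± 0.24, adjusted p = 1.19e-06 in DC1 and 1.54 ± 0.24, adjusted p = 6.84e-05 in DC2.

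Mvk, mevalonate kinase, was at 19.2 to 34.1 and 9.503 to 20.7 CPM in LN CD103+ and CD11b+ DCs and at 2.99 to 6.33 CPM in splenic DCs, with log2 fold changes of 2.53 ± 0.35 in DC1 and 1.54 ± 0.35 in DC2. Mvd, the decarboxylase that makes isopentenyl diphosphate (chromosome 8, 122433596 to 122443422), had CPM values of 59.03, 36.5 and 45.9 in the CD103+ and 38.6, 31.97 and 39.3 in the CD11b+ DCs of the LN, 9.08, 8.904 and 13.7 in the CD8+ and 8.89, 11.3 and 9.66 in the CD4+ DCs of the spleen. It rose by 2.15 ± 0.24, adjusted p = 6.76e-07 in DC1 and 1.88 ± 0.24, adjusted p = 7.47e-06 in DC2 on the log2 scale. Pmvk, phosphomevalonate kinase, and Fdps, farnesyl diphosphate synthase, rose by less in DC1 (0.72 ± 0.23 and 0.76 ± 0.25) and by 1.30 ± 0.24 and 1.22 ± 0.26 in DC2. Their DC1 calls were lost without single libraries: for Pmvk without splenic CD8+ replicate 1 or 2 or LN CD103+ replicate 1 (adjusted p up to 0.0976), and for Fdps without splenic CD8+ replicate 1 or LN CD103+ replicate 3 (up to 0.0983). Acat2, which joins 2 acetyl-CoA at the entry of the pathway, was at 8.65 to 19.6 CPM in LN DCs and 7.67 to 13.3 in splenic DCs and was not called (0.39, 95% interval -0.09 to 0.88 for the average).

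The 3 enzymes from squalene synthesis to lanosterol rose on average over the lineages. Fdft1, squalene synthase, had CPM values of 136, 117 and 125 in the CD103+ and 90.9, 104 and 54.6 in the CD11b+ DCs of the LN, 23.9, 35.5 and 27.7 in the CD8+ and 29.8, 40.4 and 20.8 in the CD4+ DCs of the spleen. No LN library reached down to the splenic range, and the log2 fold changes were 2.12 ± 0.26, adjusted p = 2.30e-06 in DC1 and 1.46 ± 0.26, adjusted p = 0.000212 in DC2. Of its exon length, 26.8% overlaps Ctsb, a lysosomal protease gene, and reads there were counted for both genes without regard to strand. Ctsb was at 406 to 466 TPM (CD103+) and 484 to 672 TPM (CD11b+) in LN DCs, against 297 to 349 TPM (CD8+) and 328 to 649 TPM (CD4+) in splenic DCs, and its part in the Fdft1 counts was not tested. Sqle, squalene epoxidase, was at 63.4 to 88.5 CPM in LN CD103+ DCs, 24.6 to 40.3 in LN CD11b+ DCs and 6.34 to 22.8 in splenic DCs. It rose by 2.24 ± 0.42 in DC1 and by 1.45 ± 0.42 in DC2, and the DC2 call (adjusted p = 0.0131) was lost without splenic CD4+ replicate 1 or 2 or LN CD11b+ replicate 1 (adjusted p = 0.0682, 0.0599 and 0.0608). Lss, lanosterol synthase, had CPM values of 95.6, 69.2 and 72.7 in the CD103+ and 39.5, 47.1 and 33.4 in the CD11b+ DCs of the LN, 11.8, 23.6 and 30.003 in the CD8+ and 15.3, 28.1 and 27.5 in the CD4+ DCs of the spleen. It rose in DC1 (1.86 ± 0.31, adjusted p = 6.39e-05) and missed the threshold in DC2 (0.76 ± 0.30, adjusted p = 0.0603), where a fit with the replicate number as a block gave adjusted p = 0.03903.

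Of the 8 enzymes from lanosterol to cholesterol, 5 rose in each lineage: Cyp51, Tm7sf2, Msmo1, Hsd17b7 and Sc5d. Cyp51, the lanosterol demethylase (chromosome 5, 4081145 to 4104746), had CPM values of 176, 147 and 183 in the CD103+ and 167, 150.3 and 185 in the CD11b+ DCs of the LN, 24.6, 55.7 and 41.8 in the CD8+ and 26.8, 26.1 and 31.96 in the CD4+ DCs of the spleen. The ranges of the LN subtypes overlapped, and the log2 fold changes were 2.05 ± 0.24, adjusted p = 1.17e-06 in DC1 and 2.57 ± 0.24, adjusted p = 2.20e-07 in DC2. Msmo1, which oxidises methyl groups of the sterol, was at 90.5 to 123 CPM in LN DCs and 22.1 to 58.6 in splenic DCs. Sc5d, a sterol desaturase, was at 51.5 to 86.6 against 25.97 to 39.4 CPM, and Hsd17b7, a ketosteroid reductase, at 13.5 to 29.9 against 0.956 to 9.32 CPM. The LN and splenic ranges of these 3 genes did not overlap. Their log2 fold changes lay between 1.37 and 2.35 in DC1 and between 0.84 and 1.44 in DC2. The Hsd17b7 call in DC2 (adjusted p = 0.0359) was lost without splenic CD4+ replicate 1 or 2 or LN CD11b+ replicate 1 or 2 (adjusted p up to 0.137).

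Tm7sf2, a sterol reductase, rose by 0.92 ± 0.37 in DC1 and 1.29 ± 0.39 in DC2. The DC1 call (adjusted p = 0.0483) held in 5 of the 15 fits that each left out 1 library, with adjusted p up to 0.1195, and the DC2 call was lost without splenic CD4+ replicate 2 or LN CD11b+ replicate 1 (0.0605 and 0.0695). Tm7sf2 also lost its DC1 call with limma on log2(TPM + 1) (adjusted p = 0.0919) and its DC2 call when only those DC2 libraries were fitted (0.0701). Of its exon length, 15.3% overlaps Vps51, which was at 83.9 to 96.7 and 49.01 to 67.98 TPM in LN CD103+ and CD11b+ DCs and at 39.2 to 47.9 and 35.2 to 46.5 TPM in splenic CD8+ and CD4+ DCs. Its part was not tested. Nsdhl, Ebp and Dhcr7 were called in neither lineage. Ebp, a sterol isomerase and the most abundant enzyme of this stretch in TPM averaged over all libraries, had CPM values of 64.5, 72.9 and 47.2 in the CD103+ and 62.6, 97.5 and 60.996 in the CD11b+ DCs of the LN, 65.9, 84.3 and 54.3 in the CD8+ and 63.8, 87.6 and 63.3 in the CD4+ DCs of the spleen. These ranges lay over each other, and the average organ difference was -0.05, 95% interval -0.40 to 0.29. Nsdhl, a sterol dehydrogenase, had an average difference of 0.24, 95% interval -0.25 to 0.73, and Dhcr7, the last reductase of the pathway, 0.10, 95% interval -0.61 to 0.82 at 1.93 to 13.4 CPM.

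**Figure D3:**
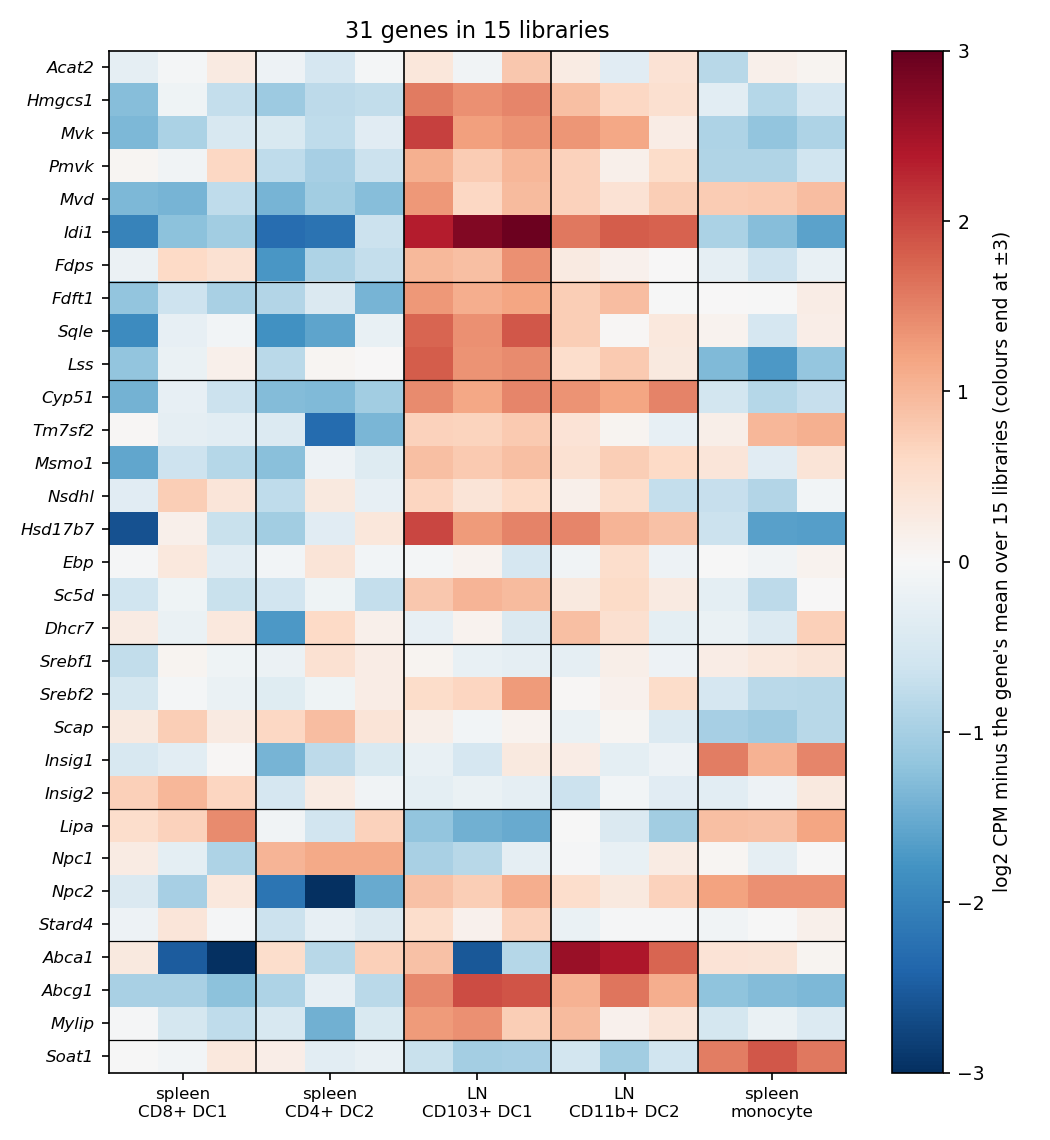
Log2 CPM of the 31 genes (rows, in pathway order, black lines between roles) in the 15 libraries (columns, replicates 1 to 3 of each subtype), as the difference from the mean of each gene over all libraries (colours end at ±3). Synthesis enzymes lie above their mean (red) in the 6 LN DC columns, except Acat2, Nsdhl, Ebp and Dhcr7, which were not called for the organ, and, in LN CD11b+ replicate 3, Tm7sf2 (-0.24) and Fdft1 (-0.0054); Soat1, Insig1 and Npc2 are red in monocytes.

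The 5 genes of SREBP control did not move together. Srebf2, which encodes the SREBP that mainly drives synthesis enzymes, had 172, 183 and 287 CPM in LN CD103+ DCs and 81.997, 114 and 103 CPM in splenic CD8+ DCs, ranges that did not overlap, and rose in DC1 (1.10 ± 0.23, adjusted p = 0.000638). In DC2 it had 121, 129 and 173 CPM in LN and 92.03, 108 and 138 CPM in spleen, which overlapped (0.32 ± 0.23, adjusted p = 0.307). Scap, the sterol sensor that escorts the SREBPs, fell in DC2 (-0.84 ± 0.20, adjusted p = 0.00288) and was not called in DC1 (-0.37 ± 0.20, adjusted p = 0.1303), although every LN library lay below every splenic one (57.02 to 86.2 against 91.4 to 146 CPM). Of the exon length of Scap, 18.9% overlaps 5830462I19Rik, a gene at 2.85 to 6.33 TPM in the DC libraries. Insig2, an anchor of Scap in the endoplasmic reticulum, fell in DC1 (50.3 to 64.2 CPM in spleen and 26.1 to 27.9 in LN, -1.05 ± 0.24, adjusted p = 0.00123) and not in DC2 (-0.26 ± 0.24). Its relative Insig1 was called in DC2 and not in DC1 (0.79 ± 0.28, adjusted p = 0.0371), a call lost without splenic CD8+ replicate 2, splenic CD4+ replicate 1 or 2, or LN CD11b+ replicate 1 or 3 (adjusted p up to 0.157). With limma it was 0.0632, and with only the DC2 libraries 0.128. For the average it had adjusted p = 0.0598, 0.0324 with the replicate block and 0.0479 with DESeq2. Srebf1, the SREBP gene tied mainly to fatty acid synthesis, lay at 54.03 to 126 CPM across the DC libraries and did not pass any test (average -0.08, 95% interval -0.41 to 0.25). The difference between the organ effects in DC1 and DC2 was tested for each of these genes and passed for none (adjusted p from 0.131 to 0.5095).

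Abcg1 and Mylip, both known to respond to LXRs, rose in LN DCs of both lineages. Abcg1, an exporter of cholesterol to lipoprotein particles (chromosome 17, 31057698 to 31115777), had CPM values of 539, 775 and 735 in the CD103+ and 411, 602 and 425 in the CD11b+ DCs of the LN, 101, 101 and 84.4 in the CD8+ and 105, 166 and 113 in the CD4+ DCs of the spleen and 86.5, 80.8 and 78.1 in monocytes. The splenic libraries, monocytes included, stayed at or below 166 CPM and the LN libraries at or above 411 CPM, with log2 fold changes of 2.84 ± 0.23, adjusted p = 1.09e-08 in DC1 and 1.91 ± 0.22, adjusted p = 2.27e-06 in DC2. The gap between these effects missed the threshold (0.93 ± 0.30, adjusted p = 0.0535), and passed it with the replicate block (adjusted p = 0.0188). In TPM, Abcg1 was the most abundant of the 31 genes in LN CD103+ DCs at 379 ± 69.02 TPM (SD, n = 3), followed by Npc2 at 346 ± 49.7 TPM (SD, n = 3). Mylip, which marks lipoprotein receptors for degradation, had CPM values of 38.8, 41.7 and 26.8 in the CD103+ and 30.8, 17.3 and 20.6 in the CD11b+ DCs of the LN, 15.4, 10.9 and 9.28 in the CD8+ and 11.3, 5.63 and 11.5 in the CD4+ DCs of the spleen. LN libraries were all higher, by 1.59 ± 0.31, adjusted p = 0.000308 in DC1 and 1.27 ± 0.31, adjusted p = 0.00385 in DC2 on the log2 scale.

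Abca1, the exporter that loads apolipoprotein particles, varied widely within subtypes. Its CPM was 15.1, 1.17 and 4.31 in the CD103+ and 49.7, 44.3 and 27.8 in the CD11b+ DCs of the LN, 9.92, 1.21 and 0.573 in the CD8+ and 11.7, 4.43 and 13.5 in the CD4+ DCs of the spleen and 10.8, 10.6 and 8.55 in monocytes. LN CD11b+ DCs were above all other libraries, and replicate 1 was far above the other 2 in both DC1 subtypes. Abca1 rose in DC2 (2.04 ± 0.73, adjusted p = 0.0379) and was not called in DC1 (0.79 ± 0.78, adjusted p = 0.429). The DC2 call was lost with DESeq2 (adjusted p = 0.0868) and without splenic CD4+ replicate 1 or 2 or LN CD11b+ replicate 1 or 2 (up to 0.129). The call of the average (adjusted p = 0.0328) was lost in 6 of 15 fits without a library, to 0.263 without LN CD103+ replicate 1, and with DESeq2 (0.0646). Without splenic CD8+ replicate 1, DC1 passed too (0.009103).

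Of the 5 genes that free, move or store cholesterol, Lipa, Npc1 and Soat1 fell and Npc2 rose in the average organ difference. Lipa, the lysosomal acid lipase that splits cholesteryl esters (chromosome 19, 34492318 to 34527474), had CPM values of 39.5, 33.2 and 31.5 in the CD103+ and 90.6, 66.7 and 44.2 in the CD11b+ DCs of the LN, 131, 147 and 243 in the CD8+ and 84.8, 61.03 and 145 in the CD4+ DCs of the spleen. In DC1 all LN libraries were below all splenic ones (-2.32 ± 0.32, adjusted p = 8.03e-06), and in DC2 the ranges overlapped (-0.53 ± 0.30, adjusted p = 0.202). The organ effects differed between the lineages by -1.80 ± 0.43, adjusted p = 0.0102, a call that held in all 15 fits without a library. Npc1, the lysosomal membrane protein that exports sterol, fell in DC2, with 55.3, 48.2 and 66.7 CPM in LN against 114, 125 and 125 CPM in spleen (-1.10 ± 0.26, adjusted p = 0.00265). In DC1 it had 28.5, 31.4 and 46.9 against 66.9, 45.7 and 29.3 CPM, which overlapped (-0.41 ± 0.26, adjusted p = 0.203), and passed without splenic CD8+ replicate 3 (adjusted p = 0.0335). Soat1, which esterifies cholesterol for storage (chromosome 1, 156428108 to 156474328), had CPM values of 49.8, 38.6 and 39.6 in the CD103+ and 53.8, 38.4 and 52.2 in the CD11b+ DCs of the LN, 78.4, 74.5 and 98.3 in the CD8+ and 90.2, 62.9 and 67.3 in the CD4+ DCs of the spleen. It fell in both lineages (-0.97 ± 0.20, adjusted p = 0.000719 in DC1 and -0.61 ± 0.20, adjusted p = 0.0271 in DC2), the DC2 call being lost without splenic CD4+ replicate 1 or LN CD11b+ replicate 2 (adjusted p = 0.131 and 0.127) or with only the DC2 libraries fitted (0.0932).

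Npc2, the soluble partner that hands sterol to Npc1 (chromosome 12, 84754560 to 84773112), had CPM values of 490.2, 444 and 563 in the CD103+ and 384, 327 and 432 in the CD11b+ DCs of the LN, 196, 134 and 331 in the CD8+ and 58.3, 25.6 and 93.1 in the CD4+ DCs of the spleen and 611, 688 and 691 in monocytes. It rose in DC1 (1.18 ± 0.34, adjusted p = 0.00837) and in DC2 (2.69 ± 0.36, adjusted p = 1.27e-05), and the DC1 call was lost without splenic CD8+ replicate 2 (adjusted p = 0.0593). The gap between these effects was just past the threshold (-1.51 ± 0.48, adjusted p = 0.0498), and the call held in 2 of the 15 fits without a library. It was lost with RLE size factors, filterByExpr and limma (adjusted p = 0.0588, 0.0503 and 0.0934). Stard4, a sterol carrier of the cytosol, stayed within 8.51 to 21.9 CPM in the DC libraries and was not called for the organ (average 0.37 ± 0.18, adjusted p = 0.08905).

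**Figure D4:**
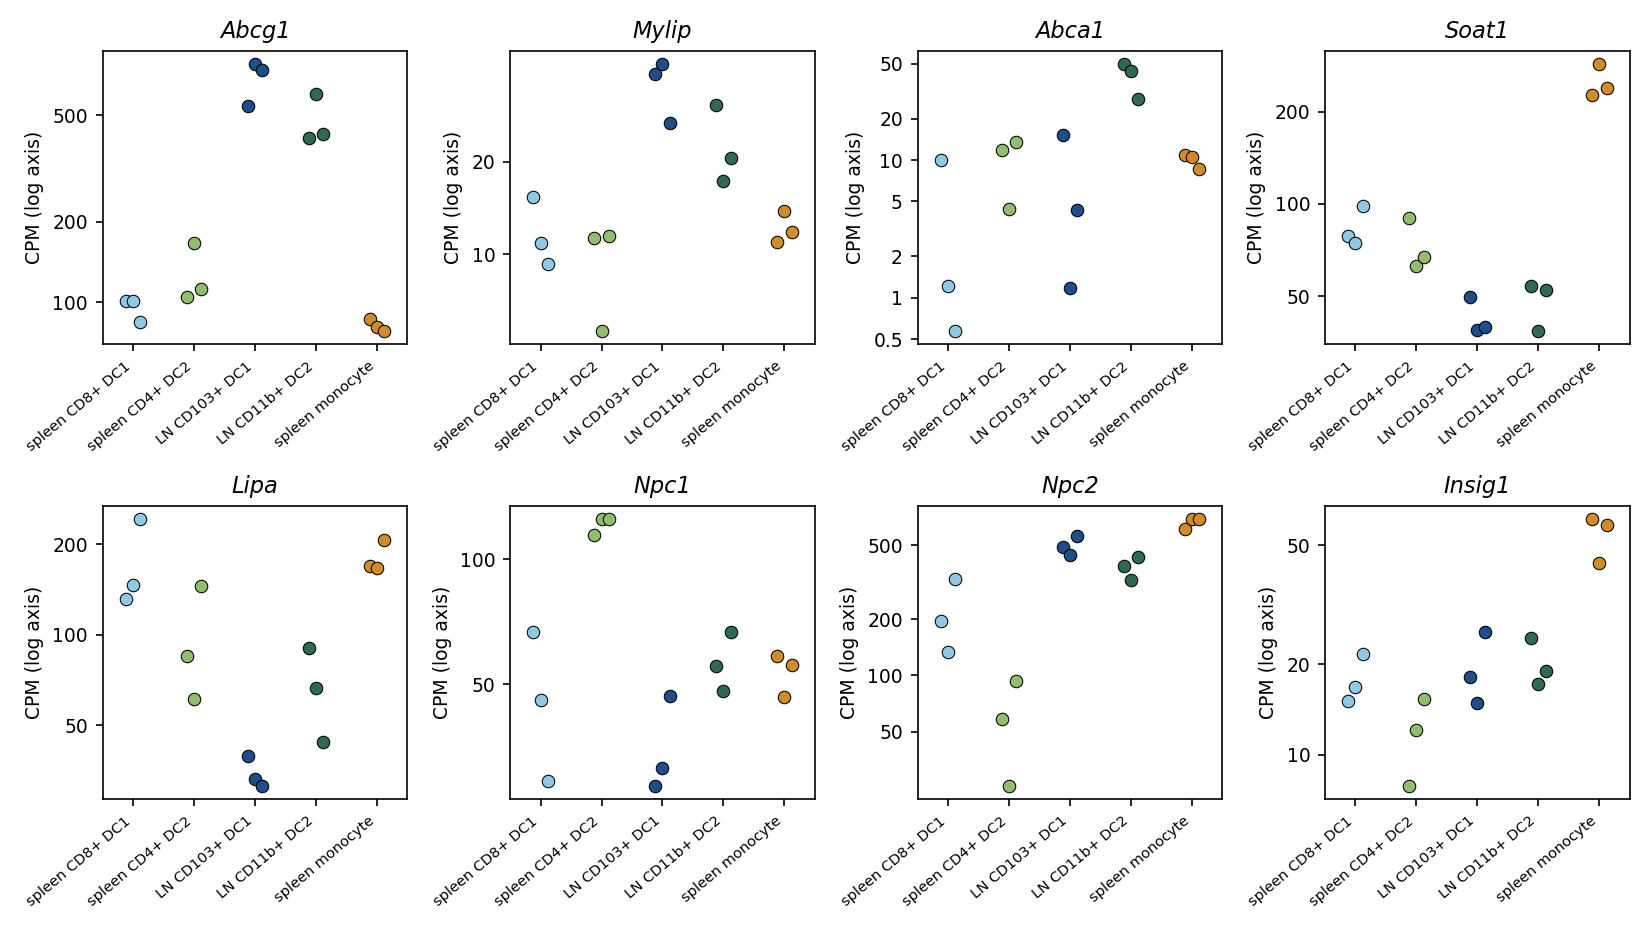
CPM per library (y axes, logarithmic, each with its own range) of 8 regulators, exporters and storage genes in the 5 subtypes (x axes). Points are libraries; Abcg1 and Mylip are higher in the LN DCs than in the splenic subtypes, Soat1 and Insig1 are highest in monocytes (227 to 286 and 43.7 to 61.2 CPM), and Abca1 spreads over a wide range within the DC1 subtypes.

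Lipa and Npc2 were the only 2 of the 31 genes with a different organ effect in DC1 and DC2 past the threshold (adjusted p = 0.0102 and 0.0498), where 11.2% of all genes had one. None of the 18 enzymes did. Their organ effect was estimated as larger in DC1 than in DC2 for 11 of the 18, and the median gap was 0.40 on the log2 scale, against -0.07 over all genes. The roles differed: this held for 5 of 7 early mevalonate genes and 3 of 3 from squalene synthesis to lanosterol. From lanosterol to cholesterol it held for 3 of 8, with a median gap of -0.11.

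Markers of other cells also differed between the organs. Of all genes, 23.8% rose and 21.8% fell in DC1, and 19.3% rose and 13.8% fell in DC2. For T cells, all 6 markers rose in both lineages, and they summed to 117 to 149 CPM (CD103+) and 71.4 to 107 CPM (CD11b+) against 1.62 to 12.8 CPM in splenic DCs. None of the T cell markers was without a count in any of the DC subtypes. B cell markers summed to 244 CPM in LN CD103+ replicate 1 and at most 90.8 CPM in the other DC libraries, and erythroid markers summed to 18.9 to 175 CPM in splenic DCs against 1.66 to 47.2 CPM in LN DCs. Of 6 monocyte markers, 5 rose in DC2 and 3 fell in DC1, with sums of 552 to 735 against 487 to 656 CPM in DC2 (LN against spleen) and 22.003 to 43.7 against 140.1 to 209 CPM in DC1. Of 10 macrophage markers tested, 5 rose and 1 fell in DC2 and 2 rose and 4 fell in DC1. All 11 on the list summed to less in LN than in spleen in DC2 (665 to 968 against 1070 to 1356 CPM). In DC1 these sums were 249.9 to 296 CPM in LN and 188 to 294 CPM in spleen. Of 4 alveolar macrophage markers tested, 3 rose in each lineage and 1 fell in DC1, with sums of 67.5 to 88.8 CPM in LN CD11b+, 6.32 to 20.2 in LN CD103+, 5.99 to 12.8 in splenic CD4+ and 5.15 to 6.75 in splenic CD8+ DCs. Of the 5 DC markers 3 fell in each lineage, with sums of 2895 to 10715 CPM in LN DCs against 14093 to 24177 CPM in splenic DCs. Plasmacytoid DC markers summed to 66.6 to 88.6 CPM in splenic CD8+ and 14.4 to 19.9 CPM in LN CD103+ DCs. In DC2 they summed to 5.99 to 18.2 CPM in spleen and 10.4 to 19.2 CPM in LN. Stroma markers summed to 56.3 to 98.9 (CD8+) and 81.8 to 87.2 CPM (CD4+) in splenic DCs. In LN DCs they summed to 5.47 to 15.6 (CD103+) and 10.9 to 17.7 CPM (CD11b+). Without LN CD103+ replicate 1, 19 genes were called in DC1. The part of other cells in the differences was not tested.

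Comparing the lineages within an organ, fewer of the genes differed. In spleen 6 of 31 passed between CD8+ and CD4+ DCs, where 27.4% of all genes did. Fdps, Pmvk, Npc2, Insig2 and Lipa were higher in CD8+ DCs and Npc1 in CD4+ DCs. Npc2 (1.90 ± 0.35, adjusted p = 0.000524) and Fdps (1.41 ± 0.26, adjusted p = 0.000496) showed the largest of these differences, and their splenic libraries did not overlap (134 to 331 against 25.6 to 93.1 CPM, and 46.4 to 78.4 against 15.3 to 31.8 CPM). Npc1 was lower in CD8+ DCs (-1.36 ± 0.26, adjusted p = 0.000654), with no library of the CD8+ DCs as high as one of the CD4+ DCs. Insig2 (0.89 ± 0.23) lost its call without splenic CD8+ replicate 2 (adjusted p = 0.0515), and Lipa (0.84 ± 0.30, adjusted p = 0.0454) in 10 of the 15 fits without a library (up to 0.258 without splenic CD8+ replicate 3) and with RLE size factors, limma or only the splenic DC libraries (0.0539, 0.0868 and 0.105). Other cells' markers differed here too: 7 of 10 macrophage markers tested were lower in CD8+ DCs and 0 higher (sums of 188 to 294 against 1070 to 1356 CPM). Of 6 monocyte markers, 2 were higher and 3 lower in CD8+ DCs (140.1 to 209 against 487 to 656 CPM). Of 2 plasmacytoid DC markers tested, 2 were higher in CD8+ DCs (66.6 to 88.6 against 5.99 to 18.2 CPM). Their part was not tested.

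In the LN, 6 of 31 passed between CD103+ and CD11b+ DCs, where 12.9% of all genes did. Hmgcs1 (0.79 ± 0.24, adjusted p = 0.0323), Fdps (0.95 ± 0.25, adjusted p = 0.01598), Sqle (1.29 ± 0.40, adjusted p = 0.0418) and Lss (0.98 ± 0.30, adjusted p = 0.0351) were higher in CD103+ DCs. Abca1 (-2.58 ± 0.75, adjusted p = 0.0275) and Lipa (-0.96 ± 0.31, adjusted p = 0.0477) were higher in CD11b+ DCs. The libraries of the 2 subtypes did not overlap for any of the 6. Markers of other cells moved with this contrast: 6 of 6 monocyte, 8 of 10 macrophage and 3 of 4 alveolar macrophage markers tested were higher in CD11b+ DCs and 0, 1 and 0 higher in CD103+ DCs. The monocyte markers summed to 552 to 735 CPM in CD11b+ and 22.003 to 43.7 CPM in CD103+ DCs, the macrophage markers to 665 to 968 and 249.9 to 296 CPM and the alveolar macrophage markers to 67.5 to 88.8 and 6.32 to 20.2 CPM, with Vsig4, Car4 and Krt79 without a count in both. Their part was not tested. Each of the 6 calls was lost without at least 1 library: without 1 of the 6 LN libraries, 1 to 3 of the 31 genes passed (3 without LN CD103+ replicate 1). With limma on log2(TPM + 1) only Fdps and Abca1 passed. With the replicate number as a block 8 passed, Idi1 (adjusted p = 0.0255, 0.0518 without the block) and Srebf2 (adjusted p = 0.0413, 0.0923 without it) being added. For 10 of the 18 enzymes every CD103+ library was above every CD11b+ library, which held for 16% of all genes, and the median log2 fold change of the 18 was 0.51, against -0.01 over all genes.

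Against the mean of CD8+ and CD4+ splenic DCs, 10 of the 31 genes differed in splenic monocytes. Of these 7 were higher, where 24.3% of all genes were, and 3 lower, where 24% of all genes were. Mvd was at 40.3, 41.01 and 45.5 CPM in monocytes, well above the 8.89 to 13.7 CPM of the splenic DCs (2.04 ± 0.19, adjusted p = 6.58e-08). Fdft1 rose by 0.97 ± 0.21, Msmo1 by 0.92 ± 0.23 and Tm7sf2 by 1.501 ± 0.31. Ctsb and Vps51, which overlap Fdft1 and Tm7sf2, were at 1407 to 1547 and 79.1 to 83.6 TPM in monocytes, above all the splenic DC libraries. Lss fell (-1.16 ± 0.28, adjusted p = 0.00249), at 10.6, 8.07 and 11.97 CPM. The other 13 of the 18 enzymes were not called, Idi1 (0.19 ± 0.35), Hmgcs1 (0.19 ± 0.21) and Cyp51 (0.27 ± 0.20) among them, and the median of the 18 was 0.10 against -0.02 over all genes.

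Soat1 and Npc2 were far higher in monocytes than in splenic DCs. Soat1 was at 227, 286 and 238 CPM in monocytes and 62.9 to 98.3 CPM in splenic DCs (1.68 ± 0.17, adjusted p = 1.30e-07). For Npc2 the values were 611 to 691 against 25.6 to 331 CPM (2.54 ± 0.28, adjusted p = 5.37e-07), and it was the most abundant of the 31 genes in monocytes at 524 ± 22.4 TPM (SD, n = 3). Insig1 was at 61.2, 43.7 and 58.5 CPM against 7.86 to 21.6 CPM (1.91 ± 0.23, adjusted p = 1.18e-06). Scap was lower, at 38.2, 36.4 and 42.4 CPM in monocytes (-1.52 ± 0.18, adjusted p = 1.61e-06), and so was Srebf2 (-0.55 ± 0.20, adjusted p = 0.0304), a call lost without splenic CD8+ replicate 2, splenic CD4+ replicate 3 or monocyte replicate 2 or 3 (adjusted p up to 0.121) or with limma (0.0965). Neutrophil markers summed to 141 to 237 CPM in the monocyte libraries and at most 1.49 CPM in splenic DCs, with Ly6g, Mpo and Elane without a count in the splenic DCs. Their part was not tested.

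**Figure D5:**
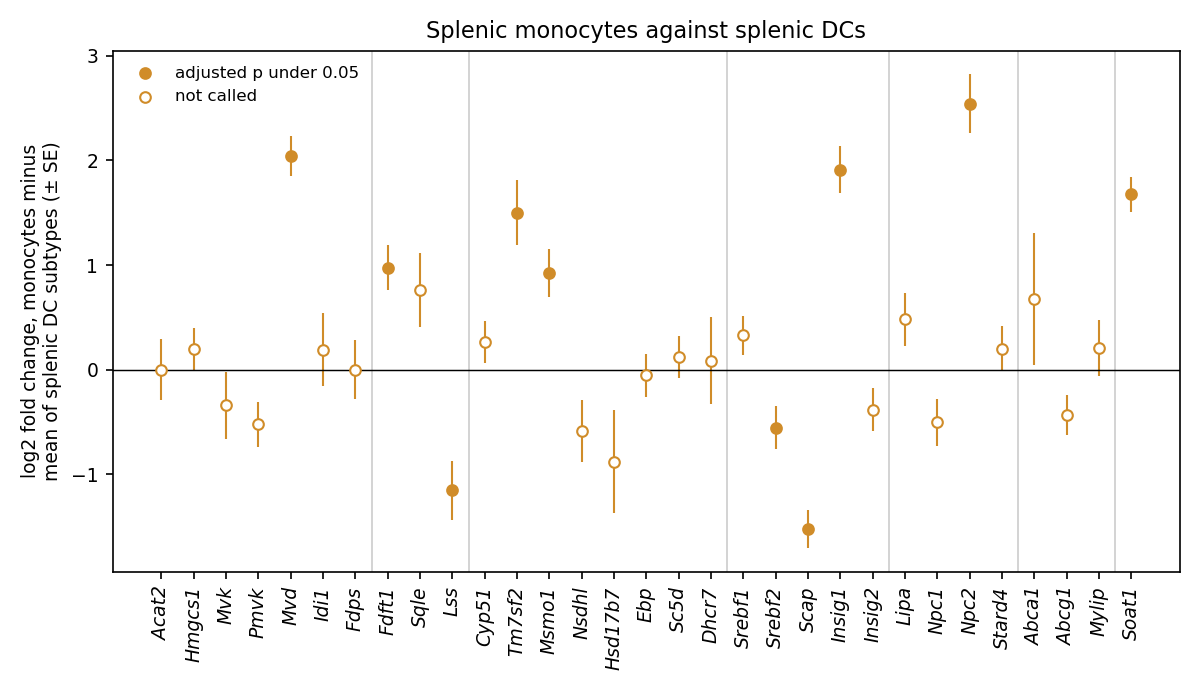
Log2 fold change of splenic monocytes minus the mean of the splenic CD8+ and CD4+ DCs (y axis, ± SE) for the 31 genes in pathway order (x axis, grey lines between roles), 3 libraries per subtype. Filled points passed adjusted p under 0.05: Mvd, Fdft1, Tm7sf2, Msmo1, Insig1, Npc2 and Soat1 lie above 0 and Lss, Srebf2 and Scap below.

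Across all 5 subtypes 26 of the 31 genes differed in an F test, where 73.5% of all genes did. The 5 others were Acat2, Nsdhl, Ebp, Dhcr7 and Srebf1, and Stard4 (adjusted p = 0.0391) lost its call in 10 of the 15 fits without a library.

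Genes of adjoining pathways are given by their counts in each direction. Of all genes tested, 26.5% rose and 23.4% fell in the average organ difference. These shares were 23.8% and 21.8% in DC1, 19.3% and 13.8% in DC2, and 24.3% and 24% in monocytes against splenic DCs. For lists this short, many of the counts lie near these shares. Of 11 tested genes of fatty acid synthesis and desaturation, 1 rose and 4 fell in the average organ difference, 0 rose and 6 fell in DC1, and 1 rose and 1 fell in DC2. In monocytes against splenic DCs 2 of the 11 rose and 4 fell. Fads2, a desaturase, was the one that rose in the average (1.66 ± 0.42, adjusted p = 0.00348), from 2.62 ± 1.12 and 0.309 ± 0.1704 CPM in splenic CD8+ and CD4+ DCs to 5.47 ± 0.762 and 1.51 ± 0.465 CPM in LN CD103+ and CD11b+ DCs. It had no count in monocytes, where 3 counts over the group would be 0.133 CPM. The splenic CD4+ value of Fads2 rested on 6 counts over the group, where 3 counts would be 0.157 CPM. Among the isoprenoid branches, which use the same mevalonate products for ubiquinone, dolichol and protein prenylation, none of 10 rose and 3 fell, the largest being Coq2, of ubiquinone synthesis (-2.24 ± 0.17, adjusted p = 2.30e-09). In monocytes against splenic DCs 2 of these 10 rose and 2 fell, and Pdss1 changed the most (0.91 ± 0.33, adjusted p = 0.0323). Of 6 genes of SREBP processing and retention 1 rose and 3 fell, Mbtps2, a protease that cuts SREBPs, by the most (-0.85 ± 0.24, adjusted p = 0.00621). In monocytes 0 of the 6 rose and 2 fell, Erlin2 by the most (-0.62 ± 0.17, adjusted p = 0.00496).

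Of 6 genes for LXRs, their partner receptors and other genes tied to them, 3 rose and 2 fell in LN DCs. Arl4c, which does not encode a receptor, was at 63.7 ± 5.62 and 57.5 ± 5.74 CPM in LN CD103+ and CD11b+ DCs against 5.04 ± 1.91 and 26.7 ± 8.12 CPM in splenic CD8+ and CD4+ DCs (2.37 ± 0.20, adjusted p = 1.12e-08). All 6 rose in monocytes against splenic DCs, Rxra, the partner receptor of LXRs, by the most (1.68 ± 0.24, adjusted p = 1.29e-05). Among 6 tested genes of lipoprotein and scavenger uptake 3 rose and 1 fell in LN DCs: Scarb1, a receptor for high-density lipoprotein, was at 204 ± 15.1 and 82.2 ± 16.5 CPM in splenic CD8+ and CD4+ DCs and at 11.8 ± 6.78 and 41.6 ± 9.83 CPM in LN CD103+ and CD11b+ DCs (-2.55 ± 0.22, adjusted p = 1.89e-08). In monocytes 5 of the 6 rose and 1 fell, and the scavenger receptor Msr1 had 262 ± 18.6 CPM against 0.572 ± 0.559 and 8.49 ± 1.45 CPM in splenic CD8+ and CD4+ DCs. Of 8 genes of sterol transport and ester turnover 2 rose and 4 fell in LN DCs, Stard5 by the most (-2.18 ± 0.18, adjusted p = 1.14e-08), and 4 rose and 1 fell in monocytes, Gramd1a by the most (1.52 ± 0.19, adjusted p = 2.60e-06). All 14 cell-cycle genes fell in LN DCs against splenic DCs and in monocytes against splenic DCs, Birc5 by the most in the first (-3.92 ± 0.42, adjusted p = 2.85e-07) and Cdk1 in the second (-5.92 ± 0.48, adjusted p = 8.45e-09), and the 14 summed to 354 to 602 CPM in LN DCs, 1339.6 to 2144 CPM in splenic DCs and 192 to 213 CPM in monocytes.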

How the data were processed

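RNA of sorted cells was amplified as cDNA (SMARTer) and sequenced on Ion Torrent. Reads under 30 nt had been discarded, and the rest were aligned with STAR 2.4.0j to mm10. The authors counted reads per Ensembl gene with featureCounts (Subread 1.5.2), without strand and with a read that overlaps 2 genes counted for each where at least 0.5 of it lies on the gene. The deposited values used here are raw counts per gene, and the TPM deposited by the authors, which equal the counts per length scaled to a common total. Each monocyte library is the sum of 2 runs, so its replicates stay 3. The group of each library came from the labels.

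Differences were tested on the deposited counts with edgeR 4.0.16 (R 4.3.3): a filter of 1 CPM, to be passed in 3 or more libraries, TMM factors (0.8832 to 1.1), 1 mean per subtype over all 15 libraries, the quasi-likelihood test and Benjamini-Hochberg adjustment over 14456 genes at 0.05, all 2-sided. The printed CPM use TMM library sizes. Log2 CPM in the plots carry a prior count of 2. The common dispersion was 0.06815, with 10 residual degrees of freedom. The method was tested on simulated data for the average organ difference only. That simulation used 1 dispersion for all genes, no effect of replicate number and no changed genes of low count. It does not cover the other comparisons. Alternatives were RLE factors, DESeq2 1.42.0, limma 3.58.1 on log2(TPM + 1), no filter, filterByExpr, the replicate block, only the subtypes compared, a minimum log2 change of 1, and leaving out each library. All 31 genes are named by role. Of each adjoining pathway list, the gene with the largest change past the threshold was named for the average organ difference and for monocytes. The genes, lists and comparisons were chosen with earlier results of these data known.

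Replicate numbers were checked for pairing by correlating deviations from the subtype means. The correlation passed 0.1 in 14 of 30 pairs with the same number and in 0 of 60 with different numbers. The deviations within a subtype sum to 0, so a positive correlation at the same number lowers those at different numbers. These counts are therefore not independent of each other. For LN CD103+ against CD11b+, splenic CD8+ against CD4+, and LN CD11b+ against splenic CD4+ the correlation passed 0.1 in each pair. For these the replicate block is given where it changes a call. The correlation also passed 0.1 in each pair of LN CD103+ and splenic CD4+ DCs. These were not compared directly but enter the average and the interaction. For LN CD103+ against splenic CD8+ and for monocytes against splenic DCs the correlation did not pass 0.1. The main tests carry no block. The labels do not say what a number marks.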

Additional observations from a re-analysis of the deposited data

Results flagged for a closer look

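For 2 genes a different organ effect by DC lineage passed the threshold, tested as an interaction in the edgeR model over the 15 libraries. For Lipa, the lysosomal acid lipase, the organ difference in DC1 minus that in DC2 was -1.80 on the log2 scale (adjusted p = 0.0102). For Npc2, the soluble sterol carrier of lysosomes, it was -1.51 (adjusted p = 0.0498), and with the replicate block the adjusted p was 0.00713. The Npc2 call was lost in most fits without a library. It was also lost with RLE size factors, filterByExpr and limma (adjusted p = 0.0588, 0.0503 and 0.0934). Of all genes tested, 11.2% passed this test.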

How the results depend on the processing

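Of 90 results of single genes past the threshold, 58 stayed past it under every alternative run, 32 lost it under at least 1, and 0 changed sign. The 6 genes called between the LN subtypes became 2 with limma on log2(TPM + 1), 2 with a minimum log2 change of 1, and 1 to 8 without single libraries. The 2 genes with a different organ effect by lineage became 4 without the filter on low counts, 1 with filterByExpr, and 1 to 3 without single libraries. The causes were not tested. The summed log2 ratio of LN over spleen in DC1 became 1.55 as a mean of centred log2 CPM, and that of splenic CD8+ over CD4+ DCs went from 0.376 to 0.134 without Fdps, the most abundant enzyme. Without single libraries the average organ difference, not called, ran from -0.177 to 0.0351 for Ebp and from -0.126 to 0.357 for Dhcr7.

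With the replicate block the calls were 25 for the average organ difference, 21 in DC1, 22 in DC2, 6 between the splenic subtypes, 8 between the LN subtypes, 3 for the interaction and 13 in monocytes. The block added Pmvk (0.0288), Sqle (0.0400) and Abcg1 (0.0348) in monocytes and Nsdhl (0.0345) in the F test, with no call lost. For monocytes, where the numbers did not pair the libraries, this is a block by number only. Depth limits the precision for Idi1, which rested on 67 and 95 counts over the splenic CD4+ and CD8+ libraries. It also does so for Mvk (110 and 105 counts), Hsd17b7 (115 and 107), Tm7sf2 (86 and 205) and Abca1 (198 and 97), in the same order.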
